A study of Homo sapiens with 8 samples.

Results

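The 10 genes described here encode the DNA-binding protein CTCF, the 5 subunits of the cohesin ring (SMC1A, SMC3, RAD21, STAG1 and STAG2) and 4 proteins that load, hold or release it (NIPBL, WAPL, PDS5A and PDS5B). They were taken by gene symbol from the 27945 genes of a fastGRO-seq count table, where all 10 were found, and all 10 were among the 12844 genes that passed the filter on low counts. In fastGRO-seq, nuclei are isolated and engaged polymerases run on with a labelled nucleotide, and the labelled RNA is captured and sequenced, so that the counts report ongoing transcription over whole gene bodies rather than stored mRNA or protein. The cells were IMR90, a line of human diploid lung fibroblasts. Senescent cells carried a fusion of the estrogen receptor with oncogenic H-RAS (ER:RAS) that was switched on with 100 nM 4-hydroxytamoxifen (4-OHT), were harvested on day 6, and expressed a control shRNA (shControl) or 1 shRNA against METTL3 (shMETTL3) or METTL14 (shMETTL14), the partners of the m6A RNA methyltransferase complex. Control cells are labelled wild type with control treatment, and no shRNA is named for them. Each of the 4 groups had 2 libraries. The shRNAs were carried by selected populations, not by single clones, so cell-to-cell differences in knockdown are averaged. Where senescent shControl cells are set against control cells, senescence, ER:RAS with 4-OHT and shRNA infection cannot be told apart. These are bulk libraries, in which fewer cells that transcribe a gene and less transcription per cell cannot be told apart either.

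Cohesin is a protein ring that closes around DNA and extrudes it into loops. SMC1A and SMC3 form the arms of the ring, RAD21 bridges their heads, and either STAG1 or STAG2 binds RAD21. NIPBL loads the ring and drives extrusion, WAPL opens and releases it, and PDS5A and PDS5B bind it and serve both release and protection, while CTCF bound to its motif halts extruding cohesin and so sets where many loops end. The study asked how METTL3 and METTL14 bear on chromatin contacts and transcription in senescence. The values below concern only the nascent RNA of the genes that build and steer such contacts.

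The promoters of the 4 members that differed between senescent shControl and control cells are shown first, because 3 of them (CTCF, SMC3 and STAG1) moved together and the fourth (STAG2) moved the other way. They run from 250 bases before to 50 bases after a RefSeq start site in GRCh38.p14, 5′ to 3′ on the strand of the gene, and capitals mark the motifs named after them. For STAG2, which has 3 starts in the RefSeq table, the first is shown. CTCF lies at chr16:67562276-67562575 on the plus strand, SMC3 at chr10:110567445-110567744 on the plus strand, STAG1 at chr3:136752329-136752628 on the minus strand and STAG2 at chrX:123960310-123960609 on the plus strand.
CTCF: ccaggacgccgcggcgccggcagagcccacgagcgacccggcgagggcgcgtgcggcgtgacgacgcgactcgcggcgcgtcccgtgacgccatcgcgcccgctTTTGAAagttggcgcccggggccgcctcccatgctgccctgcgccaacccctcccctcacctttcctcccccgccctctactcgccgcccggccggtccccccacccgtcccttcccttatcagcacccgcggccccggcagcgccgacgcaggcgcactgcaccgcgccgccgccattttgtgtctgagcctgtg
SMC3: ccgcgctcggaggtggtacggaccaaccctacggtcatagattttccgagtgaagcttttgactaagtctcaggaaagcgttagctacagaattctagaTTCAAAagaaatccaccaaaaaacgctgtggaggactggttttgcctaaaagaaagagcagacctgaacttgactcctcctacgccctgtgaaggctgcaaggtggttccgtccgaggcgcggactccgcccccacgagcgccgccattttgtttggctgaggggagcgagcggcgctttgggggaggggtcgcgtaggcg
STAG1: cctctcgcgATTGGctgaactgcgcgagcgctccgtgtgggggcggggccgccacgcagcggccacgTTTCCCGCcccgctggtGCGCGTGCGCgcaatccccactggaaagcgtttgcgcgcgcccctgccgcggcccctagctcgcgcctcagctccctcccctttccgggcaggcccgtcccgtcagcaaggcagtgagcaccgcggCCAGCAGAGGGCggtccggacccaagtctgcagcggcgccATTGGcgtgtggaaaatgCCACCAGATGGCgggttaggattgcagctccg
STAG2: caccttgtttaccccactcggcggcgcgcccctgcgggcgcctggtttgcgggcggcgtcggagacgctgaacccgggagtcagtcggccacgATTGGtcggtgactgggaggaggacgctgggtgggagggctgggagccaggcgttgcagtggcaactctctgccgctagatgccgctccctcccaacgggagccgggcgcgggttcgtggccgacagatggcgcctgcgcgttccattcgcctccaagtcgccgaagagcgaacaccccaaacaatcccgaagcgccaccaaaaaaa

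Both strands were searched for 7 motifs, and no match overlapped another motif. The cell-cycle element CHR (TTTGAA), which repressor complexes of quiescent cells bind, was found once before the start of CTCF and once, on the opposite strand, before that of SMC3. It occurs in 15.2% of the 35116 promoters of that length, and PDS5B holds it too. The core motif of CTCF itself was found in 0.470% of promoters and among the members in STAG1 alone, which has 2 matches, at -40 to -29 from the start and at bases 19 to 30 of the transcribed part. The E2F letters TTTNNCGC (6.89% of promoters) were found in STAG1, NIPBL and SMC1A and in later starts of STAG2, and the NRF1 motif (2.77%) in STAG1. CCAAT (34.6%) was found in 5 of the 9 members in the table, STAG1, STAG2, WAPL, PDS5A and PDS5B. None of the 9 held the AP-1 letters TGANTCA (7.71%) or TATAAA (11.5%). These are matches of letters and not measured binding. RAD21 was not among the promoters used here.

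Ribosomal RNA rows took 86.2% to 92.5% of each library, which left 1513930 to 2048475 counts on other genes. Nascent METTL3 was at 16.4 and 18.04 normalized counts with shMETTL3 against 91.0 and 52.3 with shControl, and was lower (log2 fold change -2.04, adjusted p = 1.79e-05). Nascent METTL14 was at 17.99 and 14.7 with shMETTL14 against 28.4 and 31.2 with shControl, but this difference was not called (-0.86, adjusted p = 0.0763). Nascent METTL14 averaged 50.5 in control cells and was called lower with shControl (-0.76). For the knockdowns the paper refers to a western blot, which reads protein and not nascent RNA. The 8 fibroblast genes listed averaged from 187 (THY1) to 10678 (FN1) counts a library. In senescent shControl against control cells 5 of them were called lower and 1 (VIM) higher, where 13.3% of all genes tested were called in each direction. The epithelial gene EPCAM, the endothelial gene CDH5 and the leukocyte gene PTPRC averaged 0.125, 0.25 and 2, whereas KRT8, KRT18 and CD68, from the epithelial and leukocyte lists, averaged 19, 23.4 and 37.1. The proliferation genes MKI67 and TOP2A averaged 187 and 136 normalized counts in control cells, 44.3 and 28.1 with shControl. They averaged 0.513 and 1.54 with shMETTL3 and 2.08 and 2.08 with shMETTL14. Of the 6 proliferation genes listed (MKI67, TOP2A, CCNA2, CCNB1, CDK1 and LMNB1), 5 were called lower in senescent shControl than in control cells, beside 13.3% of all genes. The part of cell-cycle exit in the values of the members was not tested.

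The libraries with shMETTL3 stood apart in a way that touched the members. In replicate 2, 8 of the 10 members were higher than in replicate 1, by a median of 0.41 on the log2 scale over the 10, and PDS5B was 1.69-fold higher. The corresponding medians were 0.05 in control, -0.06 with shControl and -0.03 with shMETTL14. For all genes tested, the median between the shMETTL3 libraries was -0.01. The median absolute difference was 0.33, against 0.21 in control and 0.23 in both the shControl and shMETTL14 groups. Over all 12844 genes, the difference between the 2 shMETTL3 libraries rose with gene length (Spearman's rho 0.25, against 0.11, -0.04 and 0.14 in the control, shControl and shMETTL14 groups, given as a description over genes, which are not replicates). Over the same genes, rho between fold change and gene length was 0.30 for shMETTL3 against shControl, -0.33 for shMETTL14 against shMETTL3 and 0.14 for shMETTL3 against control cells, beside -0.16 for shMETTL14 and -0.11 for shControl against control cells. The members are mostly long genes. STAG1, at 415246 bases, is longer than 97.4% of the genes tested, and STAG2, NIPBL, PDS5A and PDS5B are longer than at least 86.6%, whereas RAD21, the shortest, has 28932. For members called in a comparison with shMETTL3, fits with an offset for gene length and without its replicate 2 are named below where they lose the call.

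**Figure D1:**
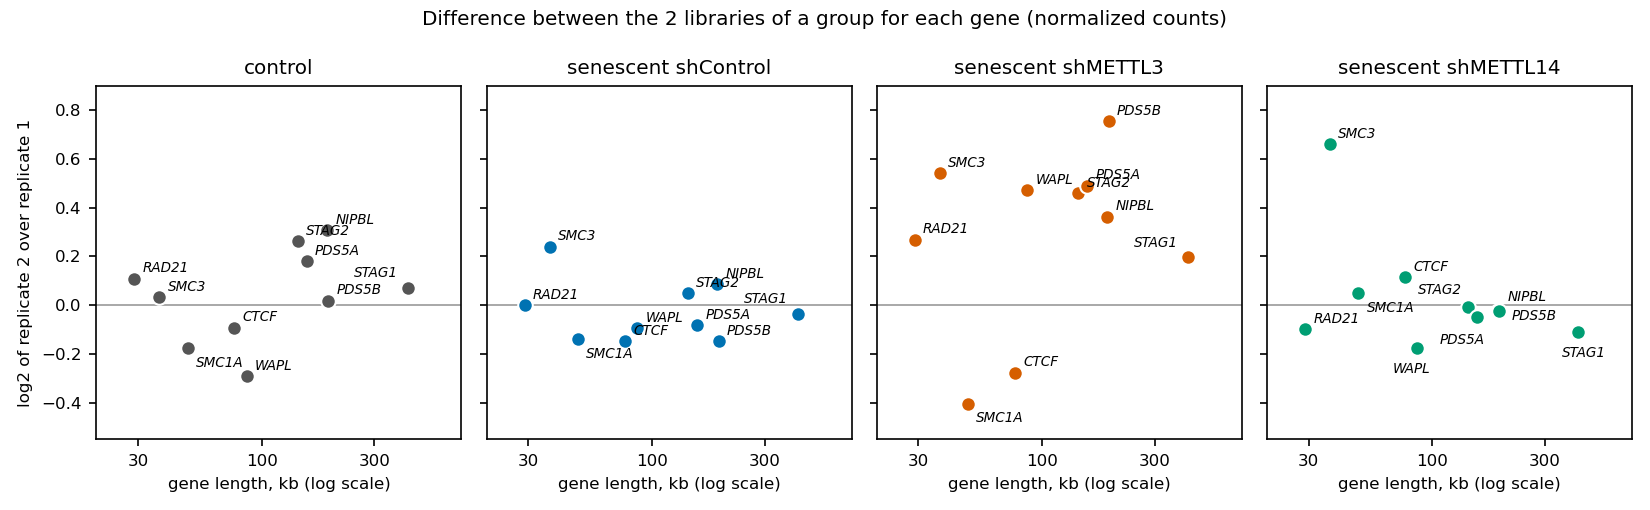
Log2 of replicate 2 over replicate 1 (normalized counts) for each of the 10 genes against gene length in kb on a log scale, 1 panel per group. In senescent shMETTL3 cells 8 of 10 genes lie above 0 and PDS5B is highest, whereas with shMETTL14 SMC3 is the gene farthest from 0.

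Per base of gene, RAD21 had the highest mean of the members in each of the 4 groups. Its mean over the 8 libraries was 2.64 RPKM (reads scaled to the length of the gene and to the counts of the library outside ribosomal RNA), higher than that of 80.7% of the genes tested. WAPL (1.49), SMC1A (1.46), PDS5A (1.43), STAG2 (1.25), NIPBL (1.17), SMC3 (1.12) and STAG1 (0.895) followed, and PDS5B (0.688) and CTCF (0.564) were lowest, CTCF being above 33.2% of the genes tested. The order differed between groups. SMC3 was above 7 other members in control cells (1.80) and below 7 with shMETTL14 (0.631), and STAG2 was below 7 in control cells (0.941) and above 7 with shMETTL3 (1.68). In shMETTL3 replicate 2, WAPL (1.96) and STAG2 (1.92) were above RAD21 (1.89), and CTCF was not the lowest member in 4 of the 8 libraries. The spread between libraries was wide beside these steps. RAD21 ran from 1.63 to 3.33 and WAPL from 1.16 to 1.96, so even these neighbours in the order overlapped, as did PDS5B (0.587 to 0.953) and CTCF (0.388 to 0.755). Raw counts behind the values ranged from 30 for SMC3 in shMETTL14 replicate 1 to 879 for STAG1 in shMETTL3 replicate 2. Counts compared between libraries below are normalized counts, that is, counts scaled by TMM to a common library size.

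Against control cells, 4 of the 10 members were called in senescent shControl cells at an adjusted p below 0.05 (edgeR's quasi-likelihood test, adjusted over all genes tested). CTCF, SMC3 and STAG1 were lower and STAG2 was higher. Among all genes tested, 13.3% were called lower and 13.3% higher, so that 3 of 10 lower is more than the background share and 1 of 10 higher is near it, with no test of that difference. That split depends on the scaling, since 1711 genes were called higher and 1702 lower with TMM but 752 and 5015 when libraries were scaled by their totals alone. The median log2 fold change of the members was -0.10, against -0.03 over all genes tested. Leaving out a single library lowered the count of members called lower from 3 to as few as 0 and that of members called higher from 1 to 0, which is given for each gene below.

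CTCF, the gene at chr16:67596310-67673088 on the plus strand (hg19), had 95.6 and 89.7 normalized counts in control cells, 57.9 and 52.3 with shControl. With shMETTL3 it had 85.2 and 70.3, and with shMETTL14 71.96 and 77.9. The shControl libraries were lowest and the control libraries highest, and the knockdown groups, which overlapped each other, lay between. CTCF fell by 0.75 on the log2 scale in senescent shControl cells (SE 0.21, adjusted p = 0.00805), a fold of 0.595. Its gene body carried the fewest reads per kb of all members, and the fall did not pass the threshold without control replicate 1 (-0.70, adjusted p = 0.0697), shControl replicate 1 (-0.81, adjusted p = 0.0517) or shControl replicate 2 (-0.66, adjusted p = 0.101), or with DESeq2 (adjusted p = 0.0701). With shMETTL3 and shMETTL14, CTCF was above shControl in each library, at a log2 fold change of 0.49 (95% interval 0.05 to 0.94, adjusted p = 0.103) and 0.44 (-0.01 to 0.89, adjusted p = 0.157), and neither was called. Against control cells, the knockdown groups were at -0.26 (adjusted p = 0.309) and -0.31 (adjusted p = 0.223).

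SMC3, an arm of the ring whose acetylation locks cohesin on DNA, lies at chr10:112327449-112364392 on the plus strand (hg19). Control cells had 109 and 111 normalized counts and shControl cells 65.0 and 76.8. With shMETTL3 it had 55.4 and 80.7, and with shMETTL14 29.985 and 47.4. Control cells were highest and shMETTL14 cells lowest without overlap, while the shMETTL3 libraries lay on both sides of the shControl libraries. SMC3 fell by 1.51 on the log2 scale from control to senescent shMETTL14 cells (SE 0.24, adjusted p = 9.58e-06), a fold of 0.350. This was the largest difference among the 10 members in the 6 comparisons, and it passed the threshold in each of the alternative fits, with values from -1.86 to -1.20. It was made up of a fall of 0.63 from control to shControl (SE 0.22, adjusted p = 0.0319) and a further fall of 0.88 from shControl to shMETTL14 (SE 0.26, adjusted p = 0.0153). Against shMETTL3, SMC3 was also lower with shMETTL14 (-0.82, SE 0.25, adjusted p = 0.0130).

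Each single step was less firm than the whole. The step from control to shControl did not pass without control replicate 1 (-0.65), control replicate 2 (-0.61), shControl replicate 1 (-0.51) or shControl replicate 2 (-0.75), with adjusted p of 0.109, 0.130, 0.265 and 0.0825. The step from shControl to shMETTL14 did not pass without shControl replicate 2 (-0.76, adjusted p = 0.157) or shMETTL14 replicate 1 (-0.60, adjusted p = 0.251), the library with 30 raw counts. Between the knockdowns it did not pass without shMETTL3 replicate 2 (-0.51, adjusted p = 0.208) or shMETTL14 replicate 1 (-0.55, adjusted p = 0.227), nor with only the 2 groups fitted (-0.80, adjusted p = 0.0510). DESeq2 called none of these 3 steps (adjusted p = 0.179, 0.0736 and 0.0567), at log2 fold changes of -0.63, -0.88 and -0.84.

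SMC1A, the partner arm of the ring, lies at chrX:53401070-53449677 on the minus strand (hg19). It had 159 and 140.2 normalized counts in control cells, 130.0 and 118 with shControl. Its counts were 123 and 93.0 with shMETTL3 and 109.9 and 114 with shMETTL14. The control libraries were above those of the other groups, and the senescent groups lay close together. The difference between senescent shControl and control cells was -0.27 (95% interval -0.63 to 0.09, adjusted p = 0.281) and was not called. SMC1A was called lower in shMETTL3 than in control cells (-0.47, SE 0.17, adjusted p = 0.0334), but not without control replicate 1 (-0.38), control replicate 2 (-0.56), shMETTL3 replicate 2 (-0.28) or shMETTL14 replicate 1 (-0.43), nor with DESeq2 (adjusted p = 0.173) or the length offset (-0.42, adjusted p = 0.0535). In all, 11 of the 18 alternative fits did not call it. With shMETTL3 and shMETTL14 it stood at -0.20 and -0.15 from shControl, and neither was called. Between shMETTL14 and control cells the difference was -0.42 (adjusted p = 0.0592), not called here but called lower in 6 of the 18 alternative fits.

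RAD21, the bridge that separase cuts to open cohesin in mitosis, lies at chr8:117858173-117887105 on the minus strand (hg19). It had 137 and 148 normalized counts in control cells, 134.8 and 134.7 with shControl. With shMETTL3 it had 88.2 and 106, and with shMETTL14 159 and 148. The shMETTL3 libraries were lowest and did not overlap another group. RAD21 was 1.58-fold higher with shMETTL14 than with shMETTL3 (log2 fold change 0.66, SE 0.17, adjusted p = 0.00380), and lower with shMETTL3 than in control cells (-0.55, SE 0.17, adjusted p = 0.0112). Against shControl, shMETTL3 stood at -0.47 (95% interval -0.83 to -0.10, adjusted p = 0.0553) and shMETTL14 at 0.19 (-0.15 to 0.54, adjusted p = 0.465), and neither was called. Without shMETTL3 replicate 2 the first was -0.63 and was called (adjusted p = 0.0280), as it was with upper quartile scaling and with a stricter filter, whereas with libraries scaled by their totals alone it was 0.15. RAD21 is short, and with an offset for gene length it remained higher with shMETTL14 than with shMETTL3 (0.57, adjusted p = 0.0110), but it did not pass without shMETTL14 replicate 1 (0.59, adjusted p = 0.0610) or with libraries scaled by their totals alone (0.39, adjusted p = 0.159). The difference from control cells did not pass without control replicate 2 (-0.50, adjusted p = 0.0864), without shMETTL3 replicate 1 (-0.43, adjusted p = 0.0598) or with DESeq2 (adjusted p = 0.0872). RAD21-AS1, on the opposite strand, shares 443 bases with RAD21 and had 43 counts over the 8 libraries against 1058, and reads of the strands are not kept apart in these counts.

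**Figure D2:**
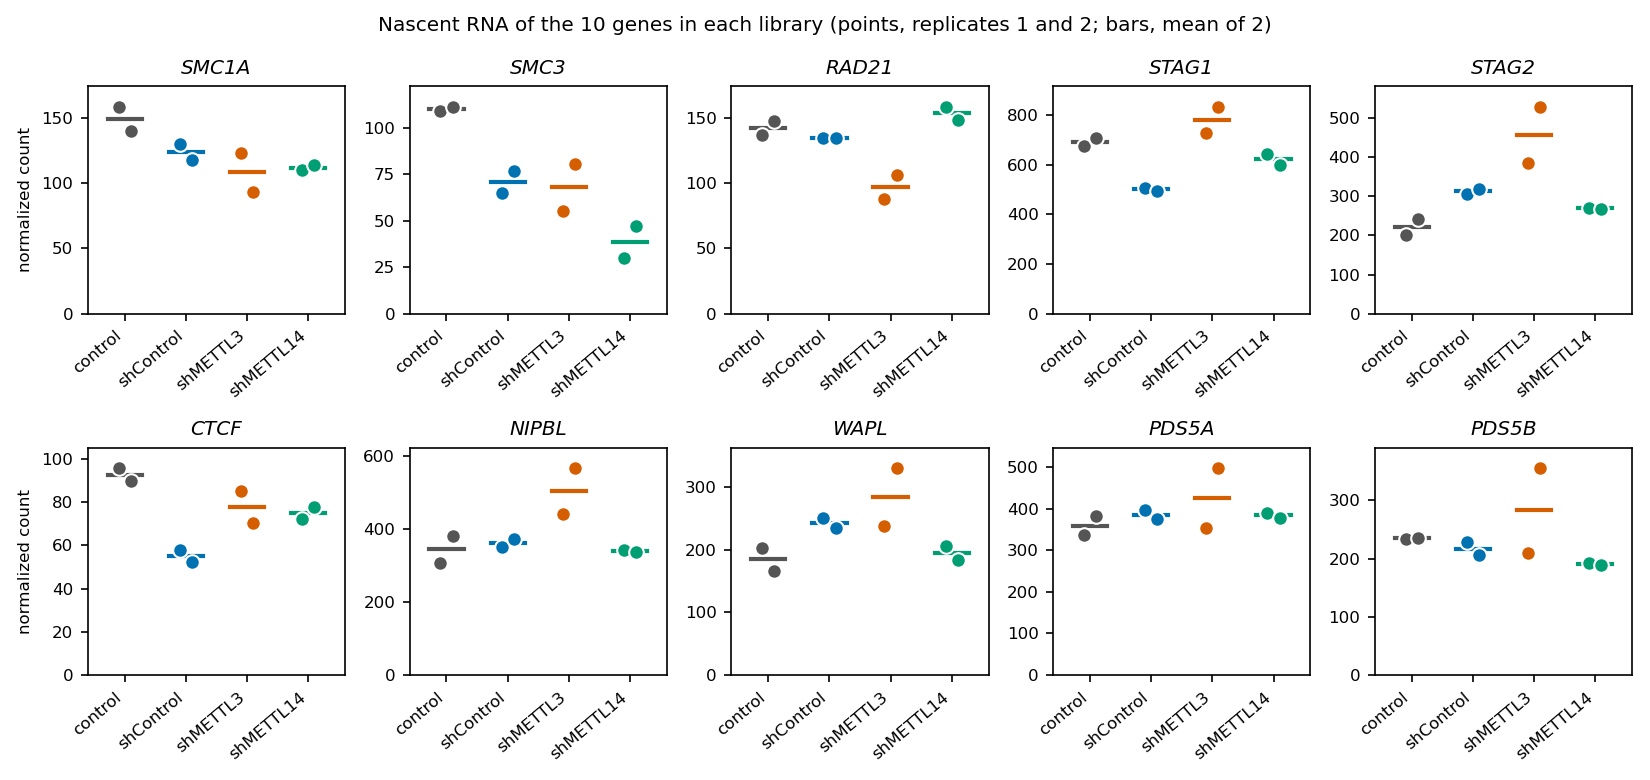
Normalized count of each of the 10 genes in every library (points) with the mean of the 2 libraries of a group (bars), on axes that start at 0. SMC3 steps down from control to shMETTL14, CTCF is lowest with shControl, and STAG1 and STAG2 move in opposite directions between control and shControl.

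STAG1 and STAG2 are alternative subunits, and a ring holds either of them. STAG1 lies at chr3:136055999-136471245 on the minus strand and STAG2 at chrX:123094410-123236505 on the plus strand (hg19). STAG1 had 676 and 709.7 normalized counts in control cells, 508 and 496 with shControl. Its counts were 728 and 835 with shMETTL3 and 646 and 598 with shMETTL14. STAG2 had 201 and 241 in control cells, 307 and 318 with shControl. With shMETTL3 it had 385 and 529.8, and with shMETTL14 269.9 and 269. For STAG1 the shControl libraries were lowest, and for STAG2 the control libraries were lowest, with no overlap between any groups in either gene.

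From control to senescent shControl cells STAG1 fell by 0.46 on the log2 scale (SE 0.13, adjusted p = 0.0106) and STAG2 rose by 0.50 (SE 0.16, adjusted p = 0.0178). The fall of STAG1 did not pass with an offset for gene length (-0.29, adjusted p = 0.0846) or without control replicate 1 (-0.49), control replicate 2 (-0.42), shControl replicate 1 (-0.47) or shControl replicate 2 (-0.43). The rise of STAG2 passed with the length offset (0.62, adjusted p = 0.00127) but not with DESeq2 (adjusted p = 0.0731) or without control replicate 1 (0.38), shControl replicate 1 (0.53) or shControl replicate 2 (0.49), and it came to 0.00 when libraries were scaled by their totals alone.

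A ratio of the genes within a library does not depend on how libraries are scaled. It can still carry the relation with gene length described above, and STAG1 is the longer gene of this pair. Per base of gene, STAG2 stood at 0.869 and 0.993 times STAG1 in the control libraries and at 1.77 and 1.87 times with shControl. With shMETTL3 the ratio was 1.54 and 1.86, and with shMETTL14 it was 1.22 and 1.31. STAG1 was thus the more transcribed of the pair per base in control replicate 1, and the pair was near equal in control replicate 2. STAG2 was the more transcribed in each senescent library, with shMETTL14 between the control and the other senescent libraries. These ratios are given as a description, with no test. With 2 libraries a group, the exact two-sided permutation test cannot go below p = 0.333.

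**Figure D3:**
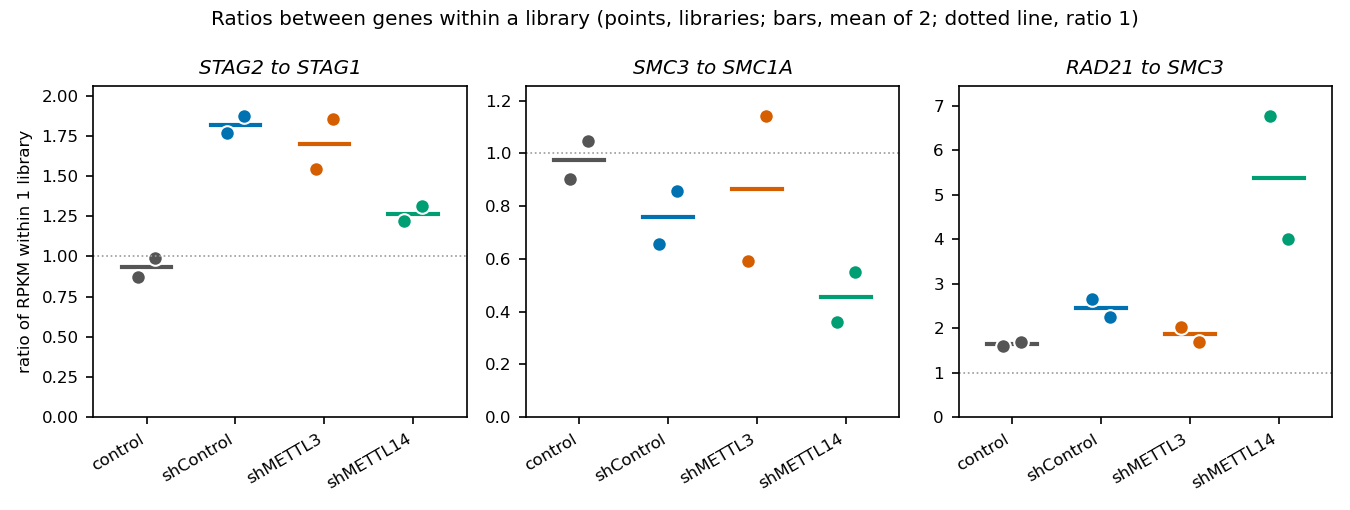
Ratio of RPKM between the genes of a pair within each library (points), with the mean of the 2 libraries (bars) and a dotted line at 1. STAG2 to STAG1 lies below 1 in control cells and above 1 in the 6 senescent libraries, and with shMETTL14 SMC3 is lowest relative to SMC1A and RAD21 highest relative to SMC3.

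In senescent cells STAG1 and STAG2 were both higher with shMETTL3 than with shControl. STAG1 rose by 0.64 (SE 0.13, adjusted p = 0.000902) and STAG2 by 0.55 (SE 0.15, adjusted p = 0.00880). With the gene length offset, neither passed (STAG1 0.22, adjusted p = 0.238 and STAG2 0.30, adjusted p = 0.120). Without shMETTL3 replicate 2, STAG1 still passed and STAG2 did not (0.28, adjusted p = 0.216), and STAG2 also did not pass without shControl replicate 1 (0.51) or shControl replicate 2 (0.56). The difference of STAG2 between shMETTL3 and control cells was larger. It rose 2.07-fold (log2 fold change 1.05, SE 0.15, adjusted p = 2.85e-06) and passed in each of the alternative fits, with values from 0.76 to 1.26. STAG2 was lower with shMETTL14 than with shMETTL3 (-0.77, SE 0.15, adjusted p = 0.000266), and this was lost in 1 fit, with the length offset and without shMETTL3 replicate 2 together (-0.26, adjusted p = 0.194). LOC101928402, on the opposite strand, shares 782 bases with STAG2 and had 24 counts against 2508. Of the other members, SMC1A overlaps MIR6857 and RAD21 also MIR3610, both at 0 counts, and the remaining 7 share no bases with another gene of the table.

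The other pair of paralogs behaved differently. PDS5A, at chr4:39824483-39979576 on the minus strand (hg19), had 337 and 381 normalized counts in control cells, 397 and 375 with shControl. Its counts were 354 and 498 with shMETTL3 and 391 and 378 with shMETTL14. Its groups overlapped throughout, and it was called in none of the 6 comparisons (adjusted p of 0.193 to 0.985, with log2 fold changes of -0.15 to 0.25). DESeq2 called it in none either. In 4 of the comparisons 1 alternative fit did call it, for shMETTL3 against shControl with libraries scaled by their totals alone (0.77), for shMETTL3 against control cells (0.47) and for shMETTL14 against shMETTL3 without shMETTL3 replicate 1, and for shMETTL14 against control cells with the length offset and without shMETTL3 replicate 2 (0.32). Its sign turned in at least 1 alternative fit in each of the 6. PDS5B, at chr13:33160564-33352158 on the plus strand (hg19), had 233 and 236 in control cells, 228 and 206 with shControl. With shMETTL3 it had 210.3 and 355, and with shMETTL14 193 and 189.6. The shMETTL3 libraries lay far apart, below and above the control libraries. PDS5B was lower with shMETTL14 than with shMETTL3 (-0.57, SE 0.18, adjusted p = 0.0130), a difference that rested on shMETTL3 replicate 2, without which it was -0.12 (adjusted p = 0.633). It also did not pass without shMETTL14 replicate 1 (-0.60) or shMETTL14 replicate 2 (-0.55), with DESeq2 (adjusted p = 0.0562), with only the 2 groups fitted (adjusted p = 0.0579), or with the length offset (-0.18). Per base, PDS5B stood at 0.400 to 0.578 times PDS5A in the 8 libraries.

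NIPBL, the loader and motor of cohesin, lies at chr5:36876861-37065921 on the plus strand (hg19). It had 308 and 381 normalized counts in control cells, 352 and 374 with shControl. Its counts were 441 and 568 with shMETTL3 and 343 and 337 with shMETTL14. The shMETTL3 libraries were highest, without overlap. Against shControl, NIPBL rose by 0.48 with shMETTL3 (SE 0.15, adjusted p = 0.0197), and against control cells by 0.55 (SE 0.15, adjusted p = 0.00338). It was lower with shMETTL14 than with shMETTL3 (-0.57, SE 0.15, adjusted p = 0.00340). With the length offset, the first and the last of these were 0.18 (adjusted p = 0.383) and -0.19 (adjusted p = 0.283), while the difference from control cells passed (0.40, adjusted p = 0.0161). Without shMETTL3 replicate 2, none of the 3 passed (0.26, 0.35 and -0.36). The difference from shControl also did not pass with DESeq2 (adjusted p = 0.0592) or without shControl replicate 1 (0.42) or shControl replicate 2 (0.51), and that from control cells without control replicate 1 (0.40, adjusted p = 0.113). Senescent shControl and control cells overlapped in NIPBL, at a difference of 0.07 (95% interval -0.23 to 0.38).

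WAPL, the release factor, lies at chr10:88195013-88281541 on the minus strand (hg19). It had 204 and 166 normalized counts in control cells, 251 and 235 with shControl. With shMETTL3 it had 238 and 330.4, and with shMETTL14 207 and 183. The shControl libraries were above the control libraries, at 0.39 (95% interval 0.06 to 0.73, adjusted p = 0.0781), which was not called. It was called in 5 of the 18 alternative fits, those with the length offset, with only the 2 groups, without either shMETTL3 library, and with the offset and without shMETTL3 replicate 2, whereas it was -0.11 with libraries scaled by their totals alone. WAPL was higher with shMETTL3 than in control cells (0.62, SE 0.16, adjusted p = 0.00254) and lower with shMETTL14 than with shMETTL3 (-0.54, SE 0.16, adjusted p = 0.00949). Neither passed without shMETTL3 replicate 2 (0.36 and -0.27). The first also did not pass without control replicate 2 (0.48), and the other did not pass without shMETTL14 replicate 2 (-0.45) or with the length offset (-0.34). Per base, NIPBL stood at 0.643 to 1.05 times WAPL, with control cells (0.692 and 1.05) spanning most of that range.

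Counted over the members, METTL3 knockdown gave 3 of 10 higher than senescent shControl cells (STAG1, STAG2 and NIPBL) and 0 lower, where 12.3% of all genes tested were called higher and 11.2% lower. At an unadjusted p below 0.05, 1 member (RAD21) was lower in that comparison, and DESeq2 called 0 lower. With the offset for gene length 0 members were called higher, and without shMETTL3 replicate 2 the count was 1. METTL14 knockdown gave 1 of 10 lower than shControl (SMC3) and 0 higher, against 12% and 9.15% of all genes. At an unadjusted p below 0.05, 1 member (STAG1) was higher with shMETTL14, and DESeq2 called 0 higher. In the same comparison, 7 of the 8 fibroblast genes were lower with shMETTL14 (median log2 fold change -1.05), and 4 of the 6 proliferation genes were lower (median -2.74). With shMETTL3, 4 proliferation genes (median -3.94), 2 fibroblast genes and CD68 were lower than with shControl, and 1 fibroblast gene was higher. The part of these genes in the values of the members was not tested. Both knockdowns were compared with the same shControl libraries.

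Set directly against each other, shMETTL14 and shMETTL3 cells differed in 6 members. RAD21 was higher with shMETTL14, and SMC3, STAG2, NIPBL, WAPL and PDS5B were lower, where 16.5% of all genes were called higher and 18.7% lower. The median log2 fold change of the 10 members was -0.44, against 0.01 over all genes tested. KRT8 and KRT18 were both higher with shMETTL14 than with shMETTL3 (1.38 and 1.63), and 5 of the 8 fibroblast genes were lower and 1 higher, and their part was not tested. The count of lower members fell from 5 to 2 with the length offset, to 1 without shMETTL3 replicate 2 and to 0 with both, and RAD21 passed in all 3 of these fits. Against control cells, shMETTL3 cells had 3 members higher (STAG2, NIPBL and WAPL) and 3 lower (SMC1A, SMC3 and RAD21), beside 20.1% and 20.1% of all genes. SMC3 was lower than in control cells with shMETTL3 (-0.69, adjusted p = 0.0117), and this did not pass without control replicate 2 (-0.68), without shMETTL3 replicate 1 (-0.45) or with DESeq2 (adjusted p = 0.0991). shMETTL14 cells had 0 members higher and 1 lower (SMC3) than control cells, beside 19.7% and 20.5% of all genes. At an unadjusted p below 0.05 still 0 were higher and 2 were lower (SMC3 and SMC1A), and DESeq2 called 0 higher. STAG2 (0.28, adjusted p = 0.156) was called higher in both fits with the length offset, and PDS5A in the one without shMETTL3 replicate 2. All 6 proliferation genes were lower with shMETTL3 and with shMETTL14 than in control cells. With shMETTL3, 5 of the 8 fibroblast genes were lower and 1 higher, and KRT8 was lower. With shMETTL14, 6 fibroblast genes were lower and 1 higher, and KRT18 was higher. CD68 was higher with shMETTL3 (1.21) and with shMETTL14 (1.68). The part of these genes in the values of the members was not tested. These comparisons share the control libraries with that of shControl.

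**Figure D4:**
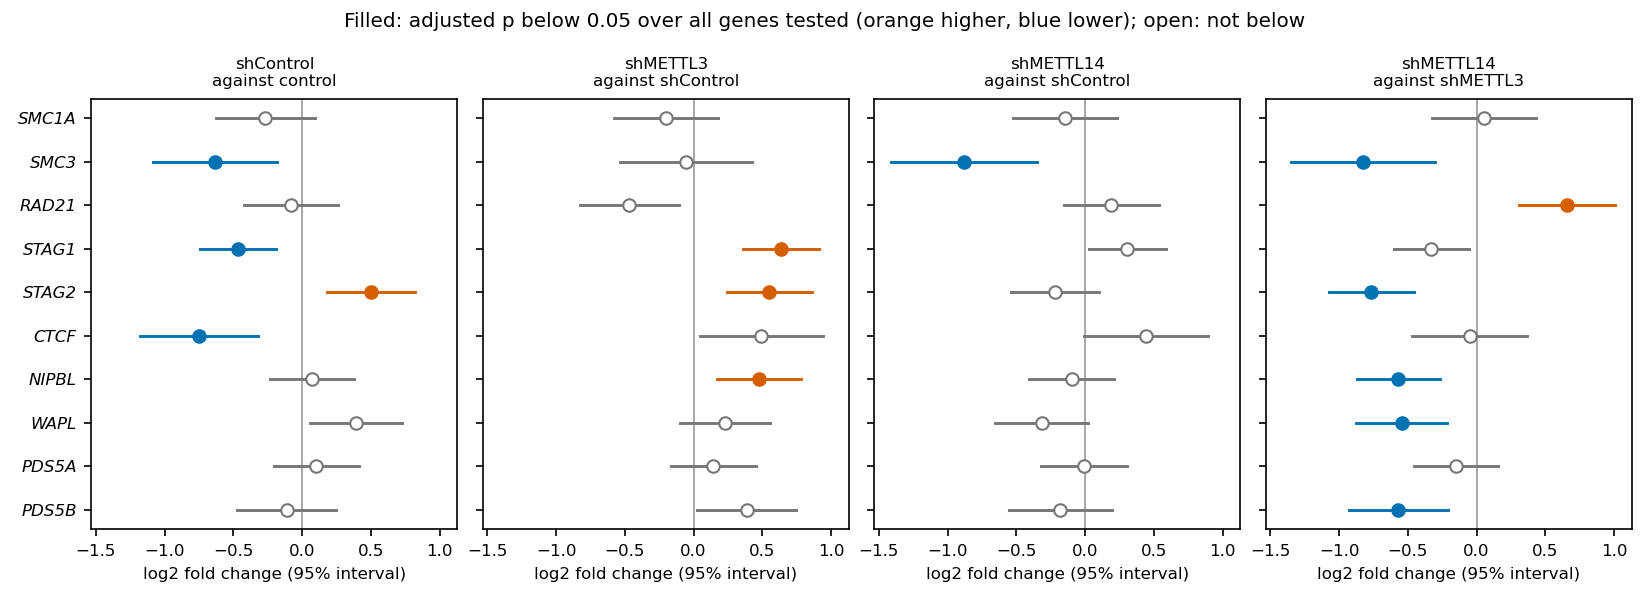
Log2 fold change of each gene with its 95% interval in 4 comparisons (filled orange, called higher, filled blue, called lower, open, not called). CTCF, SMC3 and STAG1 lie left of 0 and STAG2 right of 0 in senescent shControl cells, and SMC3 is farthest left with shMETTL14.

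**Figure D5:**
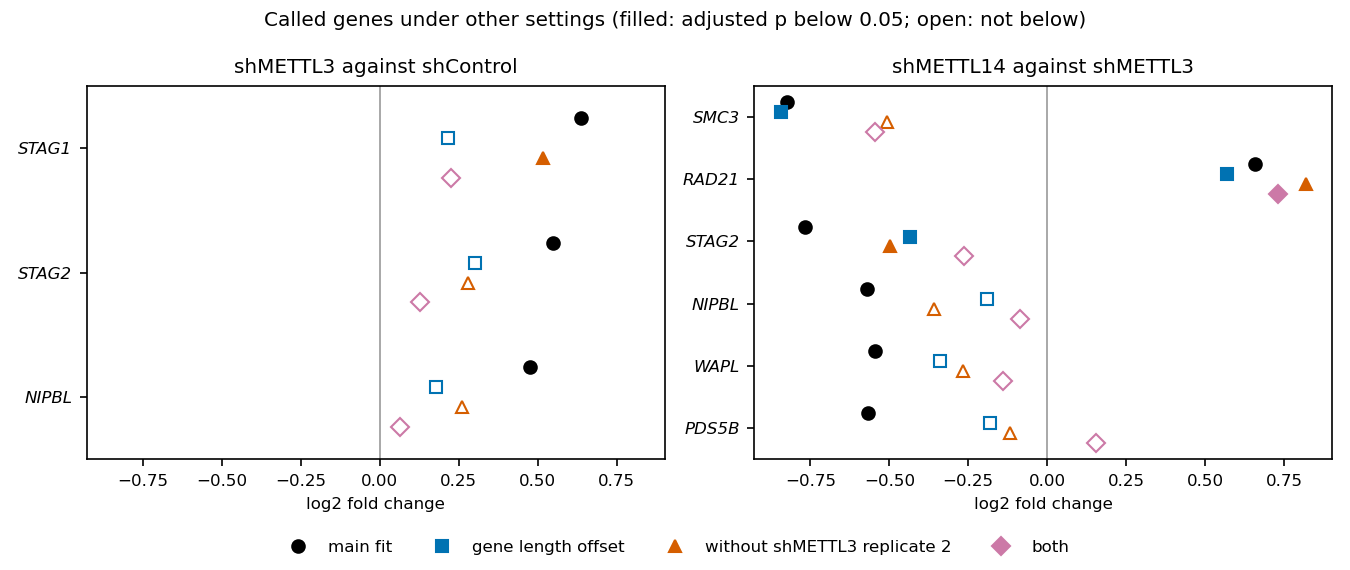
Log2 fold change of the members called with shMETTL3 against shControl and with shMETTL14 against shMETTL3, in the main fit, with an offset for gene length, without shMETTL3 replicate 2 and with both (filled, adjusted p below 0.05). STAG1, STAG2, NIPBL, WAPL and PDS5B shift toward 0 with the offset, RAD21 stays filled in all 4 fits, and PDS5B crosses 0 with both.

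Other genes of the cohesin cycle mostly had few counts. Per base, MAU2 (1.23 RPKM), PTTG1 (1.08) and CDCA5 (1.03) were above CTCF (0.730) in control cells, and the others were below it. Of the 8 listed (MAU2, ESCO1, ESCO2, CDCA5, HDAC8, SGO1, ESPL1 and PTTG1), 6 were tested. In shMETTL3 against control cells, 3 were called lower and 0 higher (median log2 fold change -1.23), where 20.1% of all genes were called in each direction. In senescent shControl against control cells the median was -0.66 (-0.03 over all genes tested). There 1 gene was called, lower, near the background share of 13.3%. That gene was ESPL1, which encodes separase, with a mean of 19.8 ± 3.3 (SD, n = 2) normalized counts in control cells and 6.89 ± 0.29 with shControl. Its log2 fold change was -1.51 (SE 0.55, adjusted p = 0.0435), which did not pass with DESeq2 (adjusted p = 0.171) or without either library of the control, shControl or shMETTL14 groups. HDAC8, which deacetylates SMC3 so that released cohesin can be reused, was higher with shMETTL3 (264 ± 36) than with shControl (187 ± 14), by 0.49 (SE 0.15, adjusted p = 0.0178), but not with the length offset (0.16, adjusted p = 0.501), with DESeq2 (adjusted p = 0.0730), or without shControl replicate 1 (0.57), shControl replicate 2 (0.40) or shMETTL3 replicate 1 (0.33). MAU2, the partner of NIPBL, had 77.4 ± 28.2, 61.1 ± 9.6, 77.2 ± 9.8 and 92.6 ± 13.3 in control, shControl, shMETTL3 and shMETTL14 cells and was called in none of the 6 comparisons. ESCO1, which acetylates SMC3, had 79.8 ± 13.95, 96.8 ± 4.8, 108 ± 16 and 78.1 ± 7.2. Of the meiotic and germline paralogs (SMC1B, STAG3, REC8, RAD21L1 and CTCFL), only STAG3 passed the filter, with a mean of 12.4 raw counts a library, and CTCFL was at 0 in all 8 libraries.

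Of 7 other factors tied to chromatin architecture, 1 was higher and 2 were lower in senescent shControl than in control cells, where 13.3% of all genes were called in each direction. ZNF143, which binds promoters at many CTCF-bound loop ends, rose by 0.94 (SE 0.22, adjusted p = 0.00210), from 42.2 ± 1.7 to 81.1 ± 12.4 normalized counts, and did not pass without shControl replicate 1 (0.79, adjusted p = 0.0637). TOP2B, a topoisomerase found beside CTCF and cohesin at loop ends, fell by 0.52 (SE 0.15, adjusted p = 0.0130), and LDB1, which joins enhancers to promoters, by 0.57 (SE 0.21, adjusted p = 0.0493). DESeq2 called neither fall (adjusted p = 0.0870 and 0.213). TOP2B also did not pass without control replicate 1, control replicate 2 or shControl replicate 2, and LDB1 without control replicate 1, shControl replicate 1 or either shMETTL14 library, nor with the replicate block (adjusted p = 0.0551). Against shControl, TOP2B was higher with shMETTL3 (0.47, adjusted p = 0.0287) and lower with shMETTL14 (-0.76, adjusted p = 0.00181). The first was lost without shMETTL3 replicate 2 (0.23) or shControl replicate 2 (0.32) and with DESeq2 (adjusted p = 0.115), and the other without shControl replicate 1 (-0.61, adjusted p = 0.0657). YY1, which links promoters with enhancers, was lower with shMETTL3 (-0.99, SE 0.21, adjusted p = 0.000913), from 106.5 ± 19.9 to 53.3 ± 2.9, and was also lower with the length offset (-0.95, adjusted p = 0.00153). ADNP was higher with shMETTL3 (0.40, adjusted p = 0.0458), and MAZ, which like CTCF can act at insulators, was higher with shMETTL14 (0.79, SE 0.25, adjusted p = 0.0261). DESeq2 called neither (adjusted p = 0.131 and 0.138), and ADNP did not pass without any single library of the control or shControl groups or without shMETTL3 replicate 2, nor MAZ without shControl replicate 1, shControl replicate 2 or shMETTL14 replicate 1.

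Counting ran over whole gene bodies, most of which are intron in most members. Exons of any GENCODE v44 transcript on GRCh37 cover 1.67% of the counted body of STAG1, 10.8% of STAG2 and 13.2% of CTCF, and 38.1% of SMC3 and 49.7% of RAD21, the shortest members. The other 5 lie between 6.31% (NIPBL) and 22.3% (SMC1A). GENCODE's STAG2 gene, at 462453 bases, runs far past the body that was counted.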

How the data were processed

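The 8 fastGRO-seq libraries fall into 4 groups. The authors deposited raw counts for each gene, made with HOMER over hg19 gene bodies with replicates kept apart, and the submitters' processing notes name STAR and deepTools 3.3. Reads of the Drosophila spike-in were not used, so a change shared by all genes is not seen. The header names a strand option, but in 83 of 84 nested pairs of genes on opposite strands the outer gene was not below the inner, so strands were treated as not separated.

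Counts were tested with edgeR 4.0.16 in R 4.3.3 (TMM, filterByExpr with a minimum of 10 counts, 1 quasi-likelihood fit over the 4 groups, common biological coefficient of variation 10.6%), with Benjamini-Hochberg adjustment over 12844 genes and a threshold of 0.05. The study's methods use DESeq2, which was run (1.42.0) as an alternative. Intervals are 95%. Normalized counts are scaled by the TMM library size, and RPKM uses the deposited gene length and the counts outside 21 ribosomal RNA rows. The script that runs the edgeR and DESeq2 fits was tested on simulated data. Nothing in the labels says that replicates were separate cultures, although the paper calls the experiments independent, so p-values measure the spread between these libraries, which may be technical.

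The members and lists were chosen with earlier results of these data known. Named are the 10 members, METTL3 and METTL14, genes that overlap a member and a selection from each other list. It favoured genes at a mean of at least 100 counts that were called for shControl against control or for a knockdown against shControl. Other genes followed mostly by mean count. The selection was not complete, as the fibroblast genes COL1A2, COL3A1, DCN and PDGFRA met it but are not described. EPCAM, CDH5 and PTPRC stand for the markers of other cell types. Alternatives were DESeq2, other scalings, filters and thresholds, no ribosomal RNA rows, a block for replicate number, fits restricted to the groups compared, an offset for gene length (lowess span 0.3) and each library left out. The length offset together with the loss of shMETTL3 replicate 2 was added after seeing the data. Promoter sequences are from RefSeq (GRCh38.p14). Plots were drawn with matplotlib 3.10.9.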

Additional observations from a re-analysis of the deposited data

How the results depend on the processing

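The 12 counts of members called (higher and lower in 6 comparisons) and the 21 called differences behind them were recomputed. Upper quartile scaling, the stricter filter and the replicate block left all 21 called differences past the threshold. Without ribosomal RNA rows and without the filter 20 passed, with only the groups compared 18, with library size alone 15, with the length offset 13 and with DESeq2 11. With library size alone the median log2 fold change of all genes was -0.53 for shControl against control (-0.03 with TMM), 0.58 and 0.35 for shMETTL3 and shMETTL14 against shControl and -0.25 for shMETTL14 against shMETTL3 (0.01 with TMM). Over all genes it called 5287 higher and 353 lower for shMETTL3 against shControl (1574 and 1434 with TMM), 3163 and 709 for shMETTL14 against shControl (1175 and 1545), 1177 and 3486 for shMETTL14 against shMETTL3 (2118 and 2399) and 1826 and 3078 for shMETTL14 against control (2531 and 2636). DESeq2 called 908 lower for shControl against control, 971 higher and 727 lower for shMETTL3 and 568 higher and 951 lower for shMETTL14 against shControl, 1212 higher for shMETTL14 against shMETTL3 and 1586 lower (2583 with edgeR) for shMETTL3 against control. The replicate block gave the same 12 counts, for instance 3 lower in shControl against control. Deviations of same-numbered libraries correlated between -0.04 and 0.08 over genes, so the numbers were not taken to pair the libraries.

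For shControl against control, members higher (1) became 0 with DESeq2, library size alone or a threshold of 0.01, and 2 with the length offset, with only the 2 groups or with offset and shMETTL3 replicate 2 left out together. Members lower (3) became 1 with DESeq2 or 0.01 and 6 with library size alone. For shMETTL3 against shControl, members higher (3) became 2 with DESeq2, 7 with library size alone and 0 with the length offset, alone or with replicate 2 left out. Members lower (0) became 1 with upper quartile scaling or the stricter filter. For shMETTL14 against shControl, members higher (0) became 3 with library size alone and 1 with either offset fit, and members lower (1) became 0 with DESeq2, library size alone or 0.01. For shMETTL14 against shMETTL3, members higher (1) became 0 with library size alone, and members lower (5) became 6 with library size alone or without ribosomal RNA rows, 3 with DESeq2, only the 2 groups or 0.01, 2 with the length offset and 0 with both. For shMETTL3 against control, members higher (3) became 1 with both, and members lower (3) became 0 with DESeq2, library size alone or 0.01. For shMETTL14 against control, members higher (0) became 1 with the length offset and 2 with both, and members lower (1) became 2 with library size alone, upper quartile scaling, the stricter filter or only the 2 groups. The sign turned for 1 called difference, PDS5B with shMETTL14 against shMETTL3, from -0.57 to 0.15 with the length offset and without shMETTL3 replicate 2. The cause of these shifts was not tested.

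With each library left out in turn, members higher ranged from 0 to 2 and lower from 0 to 3 for shControl against control, 1 to 5 and 0 to 1 for shMETTL3 against shControl, 0 to 0 and 0 to 1 for shMETTL14 against shControl, 0 to 1 and 1 to 7 for shMETTL14 against shMETTL3, 1 to 5 and 0 to 3 for shMETTL3 against control, and 0 to 0 and 1 to 2 for shMETTL14 against control. Over all genes, those fits called 1066 to 2146 higher and 763 to 2145 lower for shControl against control, 769 to 1932 and 723 to 2060 for shMETTL3 and 486 to 1645 and 784 to 1930 for shMETTL14 against shControl, and 995 to 2697 and 1409 to 2712 between the knockdowns. The lone library left in a group is then assumed to vary like the other groups. Depth limits CTCF and SMC3 most, at means of 76.3 and 73.6 raw counts a library.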

Other observations

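The condensins are relatives of cohesin that compact chromosomes for division. Of 8 condensin genes, 5 were called lower and 0 higher in senescent shControl than in control cells, at a median log2 fold change of -1.23 against -0.03 over all genes tested, of which 13.3% were called in each direction. DESeq2 called 3 lower (SMC2, SMC4 and NCAPG2). SMC4, the core subunit shared by both condensins, averaged 146 ± 21 (SD, n = 2) normalized counts in control cells and 48.5 ± 8.5 with shControl. With shMETTL3 and shMETTL14 it averaged 32.8 ± 8.7 and 15.5 ± 4.9. It fell by 1.58 in senescent shControl cells (adjusted p = 4.38e-06, edgeR's quasi-likelihood test) and by a further 1.65 with shMETTL14 (adjusted p = 0.000489), and both falls passed in each alternative fit. NCAPD2 of condensin I (175.2 ± 0.2 and 146.8 ± 0.2 in control and shControl cells) and NCAPD3 of condensin II (62.3 ± 0.5 and 43.6 ± 3.5) were not called in that comparison. NCAPH2, also of condensin II, was higher with shMETTL14 (55.7 ± 10.3) than with shControl (27.1 ± 5.2), by 1.05 (SE 0.30, adjusted p = 0.0122), but not without shControl replicate 2 (0.85) or shMETTL14 replicate 1 (0.82), nor with DESeq2 (adjusted p = 0.0821).

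The SMC5/6 complex, the remaining relative of cohesin, which acts in DNA repair, showed 0 of 7 genes called in either direction between senescent shControl and control cells, where 13.3% of all genes were called in each, at a median log2 fold change of 0.03. At an unadjusted p below 0.05, 1 (NSMCE2) was lower, and DESeq2 called 0. With shMETTL3, 2 of the 7 were higher than with shControl, where 12.3% of all genes were. SMC5 averaged 416 ± 27 normalized counts against 281 ± 3 (log2 fold change 0.57, SE 0.14, adjusted p = 0.00333), and NSMCE2, a SUMO ligase, 677 ± 85 against 289 ± 23 (1.23, SE 0.15, adjusted p = 5.27e-07). With the length offset, SMC5 stood at 0.41 (adjusted p = 0.0225) and NSMCE2 at 0.87 (adjusted p = 1.82e-05). NSMCE2 passed in each alternative fit, and SMC5 did not pass without shControl replicate 1 (0.54, adjusted p = 0.0503) or with the length offset and without shMETTL3 replicate 2 (0.40, adjusted p = 0.0579). NSMCE2 was also higher with shMETTL14 than with shControl (0.45, adjusted p = 0.0301), which did not pass without shControl replicate 1 (0.53), shControl replicate 2 (0.37) or shMETTL14 replicate 2 (0.32), nor with DESeq2 (adjusted p = 0.0963). The knockdowns share the shControl libraries.

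In senescent shControl against control cells, the collagen gene COL1A1 was at -1.49 (adjusted p = 6.29e-08). Of the markers of other cell types, 2 of 4 epithelial, 0 of 3 endothelial and 1 of 2 leukocyte genes passed the filter, and 0 of the 2 epithelial genes were called. The leukocyte gene, CD68, which encodes a lysosomal protein, was higher (2.05, adjusted p = 2.55e-05). It was lower with shMETTL3 than with shControl (-0.84, adjusted p = 0.0401). The epithelial genes KRT8 (adjusted p = 0.0144) and KRT18 (adjusted p = 0.00136) were higher with shMETTL14 than with shMETTL3.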
